A study of Homo sapiens with 18 samples.

Results

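Before Wnt3a was added, 497 genes could be compared between 2 SP5 mutant clones and WT cells. The libraries are dZF1, dZF2 and WT Rep. 2 at 0 h, 3 of the 18 samples of the series and 3 of the 12 in the mutant table. All are H1 cells, a widely used line of human embryonic stem cells, grown in E8 medium without Wnt3a. Untreated cells of the study received the buffer in which Wnt3a was stored. dZF1 and dZF2 are single-cell clones in which CRISPR-Cas9 removed the zinc-finger coding region from both SP5 alleles, so each genotype here is 1 clone and 1 library. WT Rep. 2 is a single library of WT H1 cells. The later libraries of the same 3 series received 1 nM Wnt3a for 12, 24 or 48 h, and a first WT series, held in a separately scaled table, covers the same times. The genes compared are those that the study selected because they responded to Wnt3a, so they are not a sample of the transcriptome.

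WNT ligands act through frizzled and LRP receptors to stabilise β-catenin, which with TCF/LEF factors activates target genes. SP5 is one of these targets and encodes a zinc-finger factor of the SP/KLF family that binds GC boxes. Human pluripotent stem cells are held undifferentiated by factors such as SOX2 together with FGF/ERK and TGF-β family signals from the medium, and WNT drives them towards primitive streak, mesoderm and endoderm. The 0 h comparison addresses whether cells that lack the SP5 zinc fingers already differed before that stimulus.

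Values are RPKM (reads corrected for transcript length and for the number of mapped reads) divided by the highest RPKM that the same gene reached in the 4 WT Rep. 2 libraries. WT Rep. 2 therefore runs from 0 to 1, and a clone can exceed 1. The median value over the 497 genes was 0.60 in WT Rep. 2 and, lower, 0.55 in dZF1 and 0.54 in dZF2. Each clone was compared with WT Rep. 2 as a log2 ratio after adding 0.05 to every value, which understates the change of genes with low values. Read counts are not in the table, so the depth behind each value is unknown.

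SP5 itself was near 0 on this scale, with 0.02 in WT Rep. 2 against 0.01 in dZF1 and 0.00 in dZF2. By 48 h with Wnt3a it reached 1.00, 2.54 and 2.61 in the same order. These gene-level values include reads from the part of the transcript outside the deletion, so they do not check the mutation.

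Of the 497 genes, 375 (75.5%) differed from WT Rep. 2 in the same direction in both clones. Of these, 164 (33.0%) were higher and 211 (42.5%) were lower. A further 87 genes differed in opposite directions, and 35 had a log2 ratio of 0 in 1 or both clones. Both ratios use the same WT library, so a deviation of that library moves both clones together. The median log2 ratio over all genes was -0.03 in dZF1 and -0.05 in dZF2. At 296 genes (59.6%) the mean difference from WT Rep. 2 exceeded the difference between the clones.

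A difference of at least 2-fold in both clones was found for 25 genes (5.03%), 11 higher (2.21%) and 14 lower (2.82%). With 0.2 added in place of 0.05 there were 6 higher and 6 lower. The first WT series as the reference, an alternative chosen after seeing the data, gave 38 higher and 4 lower, but across 2 separate scales. The higher genes were FAM89A, LOC100506686, USP3, ENC1, DUSP6, ADM, YAF2, APLNR, C10orf140, ATF7IP2 and LPAR4. The lower genes included ANKHD1-EIF4EBP3, PRODH, DIO3, ZNF578, SERPINB9, NTN1, EGR1, ZNF600, FLNC, ID4, NKX1-2, PPAP2B and GAD1. All 25 differed from WT Rep. 2 by more than the clones differed from each other, which a 2-fold rule in both clones nearly fixes in advance. In dZF1 alone 18 genes (3.62%) were 2-fold higher and 26 (5.23%) lower, and in dZF2 alone 29 (5.84%) and 39 (7.85%). The values at 0 h chose these genes, so their ratios are a description. The members just inside the threshold were LPAR4 and APLNR at a log2 ratio of 1.00 in the weaker clone and GAD1 at the threshold of the lower side, and those just outside were ADAMTS8 at 0.99 and SLC22A3 at -0.97. With 1 WT library no permutation of the 3 libraries can give p below 0.33. A limma model over all 12 libraries of the table, in which the lone WT library is assumed to vary like the clones, called 1 gene higher (0.201%; ENC1, adjusted p = 0.0382) and 0 lower (0%), with 73 genes at an unadjusted p under 0.05. "Higher" and "lower" below therefore describe sizes, not tested changes.

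**Figure D1:**
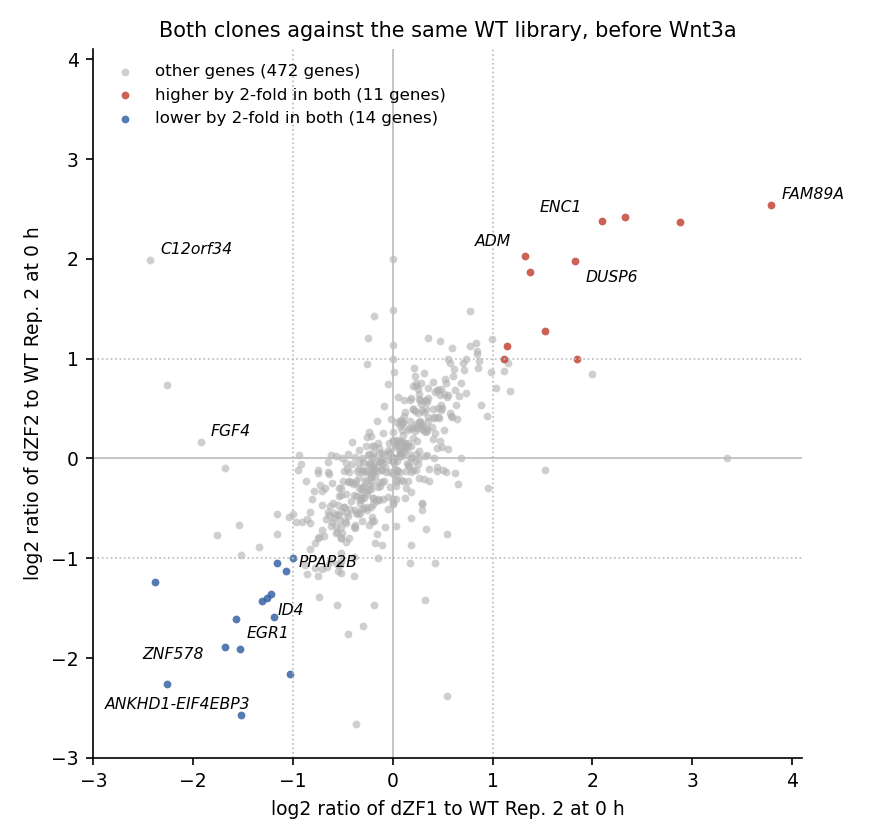
Log2 ratio to WT Rep. 2 at 0 h in dZF1 (horizontal axis) and in dZF2 (vertical axis), after adding 0.05 to each value; each point is 1 of 497 genes, dotted lines mark 2-fold, and both axes share the WT library. The 11 genes higher in both clones lie at the upper right and the 14 lower ones at the lower left, while C12orf34 and FGF4 lie off the diagonal because the clones differ.

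All ratios rest on the single WT Rep. 2 library. At 0 h the first WT series, divided by the maximum that each gene reached in it, gives another WT value for each gene, although on a separately scaled table whose RPKM are rounded to 1 decimal. WT Rep. 2 was above that value by a factor of 2 or more at 90 genes (18.1%) and as far below it at 6 (1.21%). The 2 scales have different denominators, so a ratio between them compares shares of 2 maxima and is no fold of expression. The first WT value is 1.00 by construction for the 132 genes that were highest at 0 h in that series. For all 11 genes that were 2-fold higher in the clones, the first WT series also lay above WT Rep. 2, as it did for 30.6% of all genes. For 10 of the 14 lower genes it lay below WT Rep. 2, as for 58.1% of all genes. The part of this WT difference in the results was not tested.

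All 11 higher genes were above both WT values in both clones, as were 27.0% of all genes. A place above or below WT Rep. 2 was part of the choice of these genes, so the shares of all genes are no like comparison. Among the 14 lower genes, 7 were below both WT values in both clones, among them ANKHD1-EIF4EBP3, DIO3, ZNF578, EGR1, NKX1-2 and PPAP2B (16.5% of all genes). The other 7, PRODH, SERPINB9, NTN1, ZNF600, FLNC, ID4 and GAD1, had a clone at or above the first WT series. Both clones differed by a factor of 2 from both WT values, each on its own scale, at 7 genes. ENC1, LOC100506686 and C10orf140 were higher (0.604%), and EGR1, ZNF578, PPAP2B and ANKHD1-EIF4EBP3 were lower (0.805%).

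**Figure D2:**
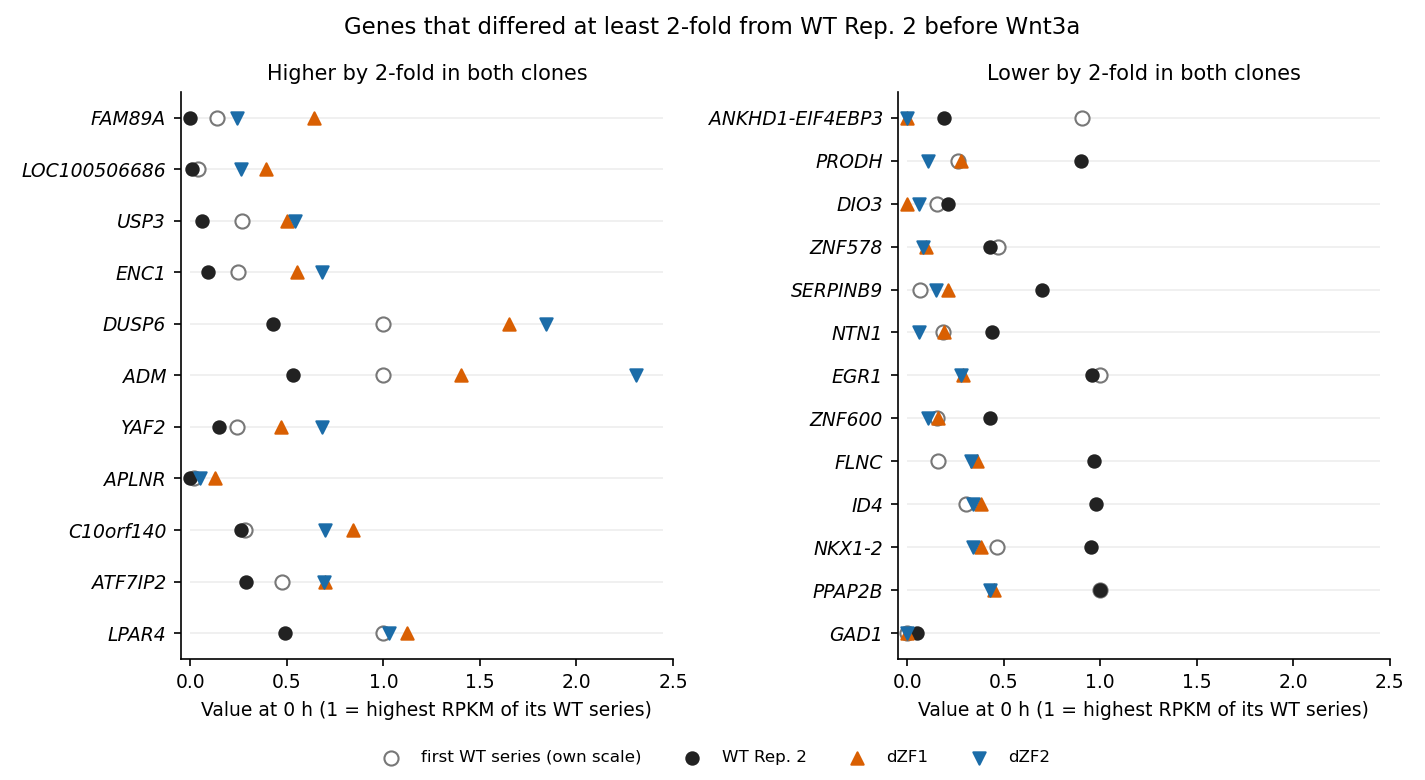
Values at 0 h of 24 of the 25 genes that differed at least 2-fold from WT Rep. 2 in both clones, higher genes at the left and lower genes at the right, with 1 symbol per library and the first WT series as open circles on its own scale. Open circles lie right of the filled WT circles for all 11 higher genes, and far left of them for genes such as FLNC and SERPINB9.

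ERK pathway genes stood at both ends. DUSP6 encodes the cytoplasmic phosphatase that dephosphorylates ERK and is itself induced by FGF/ERK signals. Its value was 0.43 in WT Rep. 2 against 1.65 in dZF1 and 1.84 in dZF2, a mean log2 ratio of 1.90 ± 0.11 (SD, n = 2 clones). Both clones were also above 1.00, the maximum of DUSP6 in the first WT series, reached at 0 h with 176.3 RPKM. They were above it by less than a factor of 2, across 2 separate scales. IL17RD, an inhibitor of FGF receptor signalling, was likewise higher, at 0.25 in WT Rep. 2 against 0.49 in dZF1 and 0.57 in dZF2. EGR1, an immediate-early zinc-finger factor that ERK signalling induces, was at the other end. It had 0.96 in WT Rep. 2 against 0.29 in dZF1 and 0.28 in dZF2, a mean log2 ratio of -1.59 ± 0.03 (SD, n = 2). The first WT series was highest at 0 h, so its 1.00 is set by its own scale. EGR1 is a gene of low level here, with 5.5 RPKM at 0 h in the first WT series. Of the 12 genes of an FGF and ERK list that were in the table, 3 were higher and 5 lower in both clones, shares near the 33.0% and 42.5% of all genes, with a median mean log2 ratio of -0.16 against -0.07 for all genes. By clone the list's median was -0.07 in dZF1 and -0.06 in dZF2, near the -0.03 and -0.05 of all genes. FGFR3, a receptor, was among the lower ones with 0.82 in WT Rep. 2 against 0.50 in dZF1 and 0.36 in dZF2. DUSP4, a related phosphatase of the nucleus, was 0.30, 0.31 and 0.27 in the same order.

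DUSP6 lies on chromosome 12 (89741012 to 89746278, minus strand, GRCh37) and EGR1 on chromosome 5 (137801168 to 137804992, plus strand). Their promoters are shown, as these ERK pathway genes differed in opposite directions, together with that of ZNF578, which was lower at every time (described further on). The 250 bases before each start site are from RefSeq on GRCh38.p14, written 5′ to 3′ on the strand of the gene. Capitals mark GC boxes (GGGCGG on either strand, the motif bound by the SP family) and CArG boxes, the binding motif of serum response factor.
DUSP6 (chr12:89352502-89352751, minus strand): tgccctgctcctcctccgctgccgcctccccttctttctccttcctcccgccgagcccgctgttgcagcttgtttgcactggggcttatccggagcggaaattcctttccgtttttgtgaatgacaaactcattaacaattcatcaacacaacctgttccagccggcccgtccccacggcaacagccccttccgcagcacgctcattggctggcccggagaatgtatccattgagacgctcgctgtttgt
EGR1 (chr5:138465229-138465478, plus strand): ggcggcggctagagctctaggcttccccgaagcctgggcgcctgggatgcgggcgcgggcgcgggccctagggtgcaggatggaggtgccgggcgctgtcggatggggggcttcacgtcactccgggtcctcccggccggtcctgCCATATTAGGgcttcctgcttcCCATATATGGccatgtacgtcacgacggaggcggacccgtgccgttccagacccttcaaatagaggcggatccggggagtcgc
ZNF578 (chr19:52453303-52453552, plus strand): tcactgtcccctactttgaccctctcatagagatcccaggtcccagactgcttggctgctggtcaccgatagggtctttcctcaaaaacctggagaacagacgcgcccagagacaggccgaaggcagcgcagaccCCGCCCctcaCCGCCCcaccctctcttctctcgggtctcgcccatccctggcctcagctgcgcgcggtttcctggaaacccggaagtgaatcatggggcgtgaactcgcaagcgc
EGR1 has 2 CArG boxes, a motif that 1.14% of the 27305 RefSeq promoters hold in this window, and no GC box. ZNF578 has 2 GC boxes, which 42.3% of all promoters hold, and DUSP6 has neither motif in these letters. A comparison of motif shares over the gene set is void, because the promoter table held only 371 of the 497 genes (74.6%) and 17 of the 25 (68.0%).

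ENC1, an actin-binding kelch protein of early neural tissue, was 0.09 in WT Rep. 2 against 0.55 in dZF1 and 0.68 in dZF2, with a mean log2 ratio of 2.24 ± 0.20 (SD, n = 2). The first WT series gave 0.25, between WT Rep. 2 and the clones. USP3, a deubiquitinase of histone H2A, had 0.06, 0.50 and 0.54 in WT Rep. 2, dZF1 and dZF2, and YAF2, a partner of Polycomb RING proteins, had 0.15, 0.47 and 0.68. Both chromatin genes were low, with 3.1 and 1.1 RPKM at 0 h in the first WT series. ADM, which encodes the vasodilator peptide adrenomedullin, was 0.53 in WT Rep. 2 against 1.40 in dZF1 and 2.31 in dZF2, with the clones further apart than for ENC1 or USP3. ATF7IP2, a relative of the SETDB1 cofactor ATF7IP, was 0.29, 0.70 and 0.69, and C10orf140 was 0.26, 0.84 and 0.70. LOC100506686 was 0.01, 0.39 and 0.26, with 0.4 RPKM in the first WT series, where such a gene is measured coarsely.

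LPAR4 and PPAP2B both concern lysophosphatidic acid, the former as a receptor and the latter as a cell-surface phosphatase that degrades it. LPAR4 was 0.49 in WT Rep. 2 against 1.12 in dZF1 and 1.03 in dZF2, while the first WT series, highest at 0 h, was 1.00 by its own scaling. PPAP2B was 1.00 in both WT series at 0 h against 0.45 in dZF1 and 0.43 in dZF2, a mean log2 ratio of -1.10 ± 0.04 (SD, n = 2). Each WT series of PPAP2B was highest at 0 h, so both WT values are 1.00 by their scaling and show no match in level. The clones lay together below WT Rep. 2. Of the remaining higher genes, FAM89A and APLNR, the apelin receptor of early mesoderm, were listed at 0 in WT Rep. 2, so no fold is given. FAM89A was 0.64 in dZF1 and 0.24 in dZF2, and APLNR 0.13 and 0.05.

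The lower genes included metabolic enzymes, a cytoskeletal protein and secreted factors. PRODH, the first enzyme of proline breakdown in mitochondria, was 0.90 in WT Rep. 2 against 0.28 in dZF1 and 0.11 in dZF2. SERPINB9, the intracellular inhibitor of granzyme B, was 0.70, 0.21 and 0.15, and FLNC, an actin crosslinker, was 0.97, 0.36 and 0.33. For these 3 genes the first WT series was at 0.26, 0.07 and 0.16, close to the clones and far from WT Rep. 2. NTN1, the axon guidance cue netrin 1, was 0.44, 0.19 and 0.06, so that the clones differed by more than 2-fold. DIO3, which inactivates thyroid hormone, was 0.21 in WT Rep. 2, 0.06 in dZF2 and listed at 0 in dZF1. GAD1, which makes GABA, was 0.05 in WT Rep. 2 and listed at 0 in both clones. ANKHD1-EIF4EBP3 was 0.19 in WT Rep. 2 and listed at 0 in both clones. It is a read-through transcript of 2 neighbouring genes whose reads it shares, so its value is uncertain.

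ZNF578 and ZNF600, zinc-finger genes on chromosome 19, were lower together. ZNF578 was 0.43 in WT Rep. 2 against 0.10 in dZF1 and 0.08 in dZF2, with a mean log2 ratio of -1.78 ± 0.15 (SD, n = 2), and the first WT series at 0.47 was close to WT Rep. 2. ZNF600 was 0.43, 0.16 and 0.11, but here the first WT series was at 0.16, level with dZF1. On GRCh37 ZNF578 spans 52956806 to 53020135 and ZNF600 53253195 to 53290060. ZNF611 lies between them, from 53206066 to 53238326, and did not share the difference, with 0.80 in WT Rep. 2 against 0.77 in dZF1 and 0.60 in dZF2. Over the 9 genes of the table named as ZNF, 6 were lower and 1 higher in both clones, against 42.5% and 33.0% of all genes, with a median mean log2 ratio of -0.39. Members of this family resemble each other in sequence, so reads may have been divided between them. Median log2 ratios by chromosome ran from -0.39 to 0.08. The lowest was that of the 11 genes of chromosome 19 in dZF2, which had a median of 0.04 in dZF1.

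ID4 encodes an inhibitor of basic helix-loop-helix factors of the kind that BMP signals induce. It was 0.98 in WT Rep. 2 against 0.38 in dZF1 and 0.34 in dZF2, with the first WT series at 0.31, level with the clones. Its relative ID1 was 1.00, 0.56 and 0.44, and ID2 was 0.64, 0.42 and 0.45, both lower in each clone. ID3 was 0.60, 0.74 and 1.05, higher in each clone, so the family was not lower as a whole. Of 9 BMP and ID genes in the table, 5 were lower and 2 higher in both clones, against 42.5% and 33.0% of all genes, with a median mean log2 ratio of -0.36 against -0.07. By clone the list's median was smaller, -0.12 in dZF1 and -0.23 in dZF2, against -0.03 and -0.05 over all genes.

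Markers of the undifferentiated state lay on both sides of WT Rep. 2, more of them below it. Of 11 fixed markers of human pluripotent stem cells, 9 were in the table, and 6 of these were lower and 2 higher in both clones, against 42.5% and 33.0% of all genes, with a median mean log2 ratio of -0.32. The missing markers were POU5F1 and NANOG, so these core factors were not checked. SOX2, a core pluripotency factor, was 1.00 in WT Rep. 2 against 0.71 in dZF1 and 0.62 in dZF2. PRDM14, a transcriptional regulator that supports pluripotency, was 0.82, 0.44 and 0.55, and the surface protein PODXL was 0.90, 0.64 and 0.60. The de novo DNA methyltransferase DNMT3B was 0.96, 0.75 and 0.77, TERF1 was 0.85, 0.75 and 0.62, and GDF3 was 0.15, 0.10 and 0.12. In contrast POLR3G, an RNA polymerase III subunit of stem cells, was 0.98, 1.42 and 1.56, and USP44 was 0.96, 1.13 and 1.35. LECT1 was 0.98, 0.96 and 1.03, on either side of WT Rep. 2. None of the 9 reached 2-fold, and each was expressed in all 3 libraries. In a wider pluripotency list 12 genes were in the table, with 6 lower and 3 higher in both clones and a median mean log2 ratio of -0.31. By clone the list's median was -0.25 in dZF1 but -0.08 in dZF2, the latter close to the -0.05 of all genes.

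Genes of differentiated fates were mostly listed at or near 0, which on this scale means a small share of the gene's own maximum. SOX17, FOXA2, HHEX and CER1 were listed at 0 in all 3 libraries, and EOMES did not exceed 0.01. In the first WT series CER1 and FOXA2 still had 1.8 and 0.9 RPKM at 0 h. Brachyury (T) was listed at 0 in WT Rep. 2 and dZF2 and was 0.46 in dZF1, and the streak gene MIXL1 was listed at 0 in WT Rep. 2 and dZF1 and was 0.09 in dZF2. These values were thus each found in a single clone. The endoderm receptor CXCR4 was above WT Rep. 2 in both clones but very low, with 0.01, 0.08 and 0.06. Of 9 definitive endoderm genes 3 were higher and 0 lower in both clones, with a median mean log2 ratio of 0.06. By clone that median was 0.00 in dZF1 and 0.04 in dZF2. Of 8 primitive streak and mesoderm genes 1 was higher and 1 lower in both clones. Of 14 neural and epiblast genes 6 were higher and 6 lower in both clones, against 33.0% and 42.5% of all genes. NKX1-2, a homeobox gene of the caudal epiblast, was 0.95, 0.38 and 0.34 in WT Rep. 2, dZF1 and dZF2, SOX3 was 1.00, 0.54 and 0.62, and POU3F1 was 1.00, 1.51 and 1.99. None of the 8 trophectoderm markers was in the table, so that fate was not checked.

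WNT pathway genes lay on both sides of WT Rep. 2 before any Wnt3a was added. AXIN2, a general WNT target that limits the pathway, was 0.87 in WT Rep. 2 and 0.57 in each clone, with the first WT series at 0.64, close to the clones. SHISA2, which retains frizzled and FGF receptors in the cell, was 0.39, 0.82 and 0.75, and DACT1 was 0.22, 0.41 and 0.54. DKK1 and DKK4, secreted inhibitors, were listed at 0 in all 3 libraries. Among 9 inhibitor and feedback genes 4 were higher and 3 lower in both clones (median 0.00), and among 11 ligands, receptors and effectors 4 were higher and 5 lower (median -0.09), against 33.0% and 42.5% of all genes. WNT3 was 0.08, 0.05 and 0.03, and MYC was 0.79, 1.12 and 1.31. No gene of either list reached 2-fold in both clones.

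The remaining lists are given by their counts and medians, to be read against 33.0% higher, 42.5% lower and a median of -0.07 over all genes. Of 25 matrix and adhesion genes 14 were lower and 8 higher in both clones (median -0.09), of 9 interferon and innate immunity genes 5 and 1 (-0.29), and of 10 actin and YAP target genes 6 and 3 (-0.21). Among these, MYL9, a myosin light chain, was 0.65, 0.41 and 0.40, while AMOTL1, which binds YAP at junctions, was 0.29, 0.57 and 0.62. The 17 ion channel and synaptic genes had 10 higher and 7 lower (0.15), the 14 axon guidance genes 4 and 7 (-0.10), the 10 solute carriers 5 and 3 (0.12), the 9 sterol and lipid genes 1 and 5 (-0.13), and the 8 NODAL and TGF-β genes 1 and 2 (-0.02).

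**Figure D3:**
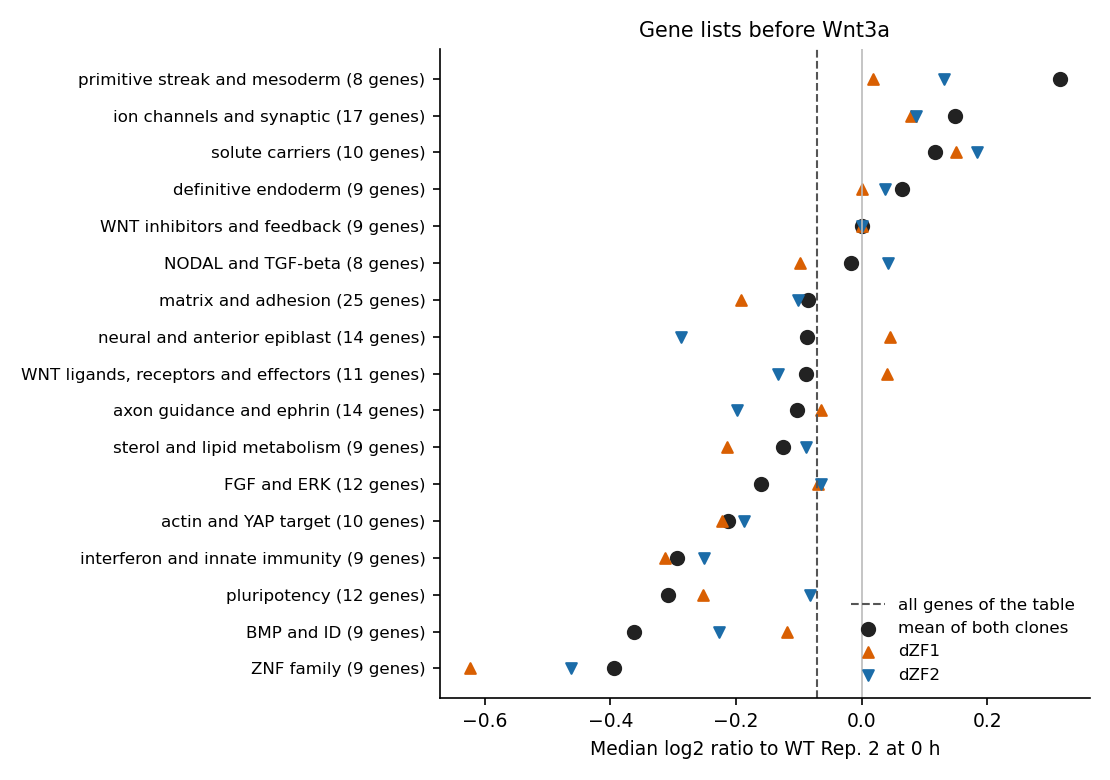
Median log2 ratio to WT Rep. 2 at 0 h for each gene list, for dZF1, dZF2 and the mean of both clones of each gene, with the number of genes in the table; the dashed line is the median of all 497 genes. List medians lie between -0.62 and 0.32, and for neural genes and WNT ligands the clones lie on either side of 0. The primitive streak list has a median of 0.32 over the clone means, but 0.02 in dZF1 and 0.13 in dZF2. Of its 8 genes 6 are listed at 0 in WT Rep. 2, where any clone value raises the ratio. The part of these genes in the median was not tested.

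The clones were not alike. They differed by at least 2-fold from each other at 31 genes (6.24%), with a median absolute log2 ratio of 0.23 between them over all genes. The genes with the widest gap in opposite directions from WT Rep. 2 were C12orf34, CLVS2, RASGEF1B and FGF4. C12orf34 was 0.22 in WT Rep. 2, 1.02 in dZF2 and listed at 0 in dZF1, and CLVS2 was 0.19, 0.35 and 0 in that order. RASGEF1B was 0.21 in WT Rep. 2 against 0.33 in dZF1 and listed at 0 in dZF2. FGF4, an autocrine ligand of embryonic stem cells, was 0.52 in WT Rep. 2 against 0.10 in dZF1 and 0.59 in dZF2. All 4 were low genes, with 0.4 to 1.8 RPKM at 0 h in the first WT series.

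The ratios at 12, 24 and 48 h were not used to choose the 25 genes. The later WT Rep. 2 libraries still took part, because the maximum over all WT Rep. 2 libraries sets each gene's scale. On that scale a constant was added before the logarithm, which affects which genes pass 2-fold. All genes compared were also selected by the study for their response to Wnt3a, so the later times are not free of the selection. At 12 h 7 of the 11 higher genes were again higher in both clones, as were 36.6% of all genes, and 2 (DUSP6 and APLNR) were again 2-fold higher, as were 3.42% of all genes. Of the 14 lower genes 12 were again lower (43.3% of all genes) and 8 again 2-fold lower (3.82%), namely ANKHD1-EIF4EBP3, PRODH, ZNF578, SERPINB9, NTN1, EGR1, ZNF600 and FLNC. At 24 h 6 of the higher and 11 of the lower genes had the same direction in both clones (51.1% and 29.2% of all genes), and 3 and 4 were 2-fold apart (10.5% and 2.82%). At 48 h the numbers were 5 and 7 (44.7% and 36.0%), and 1 and 2 were 2-fold apart (6.24% and 3.22%). The median of the lower group went from -1.25 at 12 h to -0.29 at 48 h, and that of the higher group from 0.86 to 0.13. Each time has its own WT Rep. 2 library, but all values of a gene share 1 scale and the clones are the same lines.

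**Figure D4:**
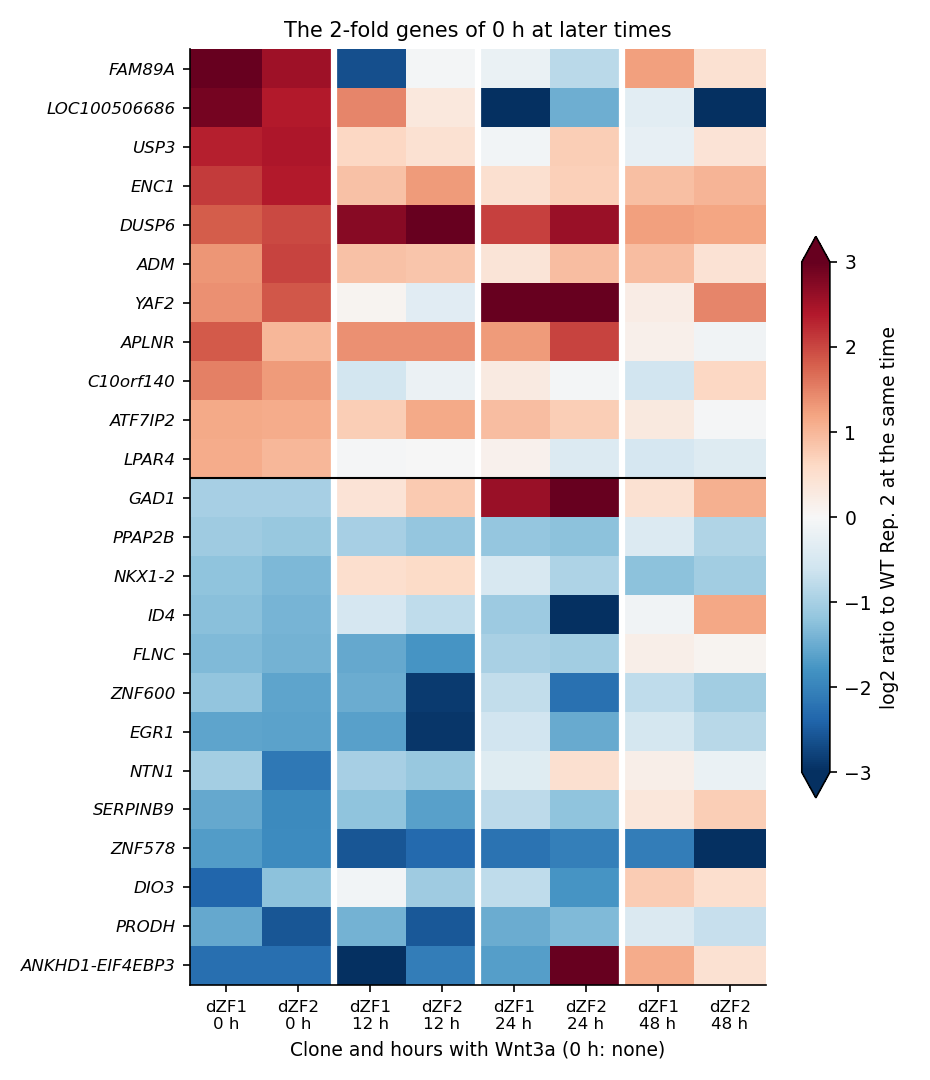
Log2 ratio of dZF1 and dZF2 to WT Rep. 2 at the same time (columns, 0 to 48 h) for 24 of the 25 genes (lines), coloured from -3 (blue) to 3 (red), with the higher genes of 0 h above the black line. DUSP6 stays red and ZNF578 stays blue in all 8 columns, while most other genes fade or turn by 48 h.

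Of the 25, DUSP6 and ZNF578 were 2-fold apart from WT Rep. 2 in both clones at all 4 times. The share of all genes that kept a direction, a 2-fold difference or a full separation at all 4 times was not counted. DUSP6 was 0.43, 0.18, 0.20 and 1.00 in WT Rep. 2 at 0, 12, 24 and 48 h, against 1.65, 1.48, 0.98 and 2.40 in dZF1 and 1.84, 1.86, 1.46 and 2.34 in dZF2. The clones thus exceeded the highest WT Rep. 2 value in 7 of 8 libraries. In the first WT series, by contrast, DUSP6 was highest at 0 h, with 176.3, 136.1, 83.0 and 137.6 RPKM at the same times. The later times of the clones were compared with WT Rep. 2 only. ZNF578 reached 1.00 in WT Rep. 2 at 48 h, and its 8 clone values ran from 0.07 to 0.20, all below the lowest WT value of 0.43. ADM and ENC1 were also higher in both clones at all 4 times, and PPAP2B, EGR1, ZNF600 and PRODH were among those lower. EGR1 ranged from 0.41 to 1.00 in WT Rep. 2 and from 0.09 to 0.35 in the clones, without overlap. SERPINB9 did not keep its difference, with 1.00 in WT Rep. 2 against 1.28 in dZF1 and 1.71 in dZF2 at 48 h. Nor did LPAR4, which at 12 h was 1.00, 0.98 and 0.99.

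**Figure D5:**
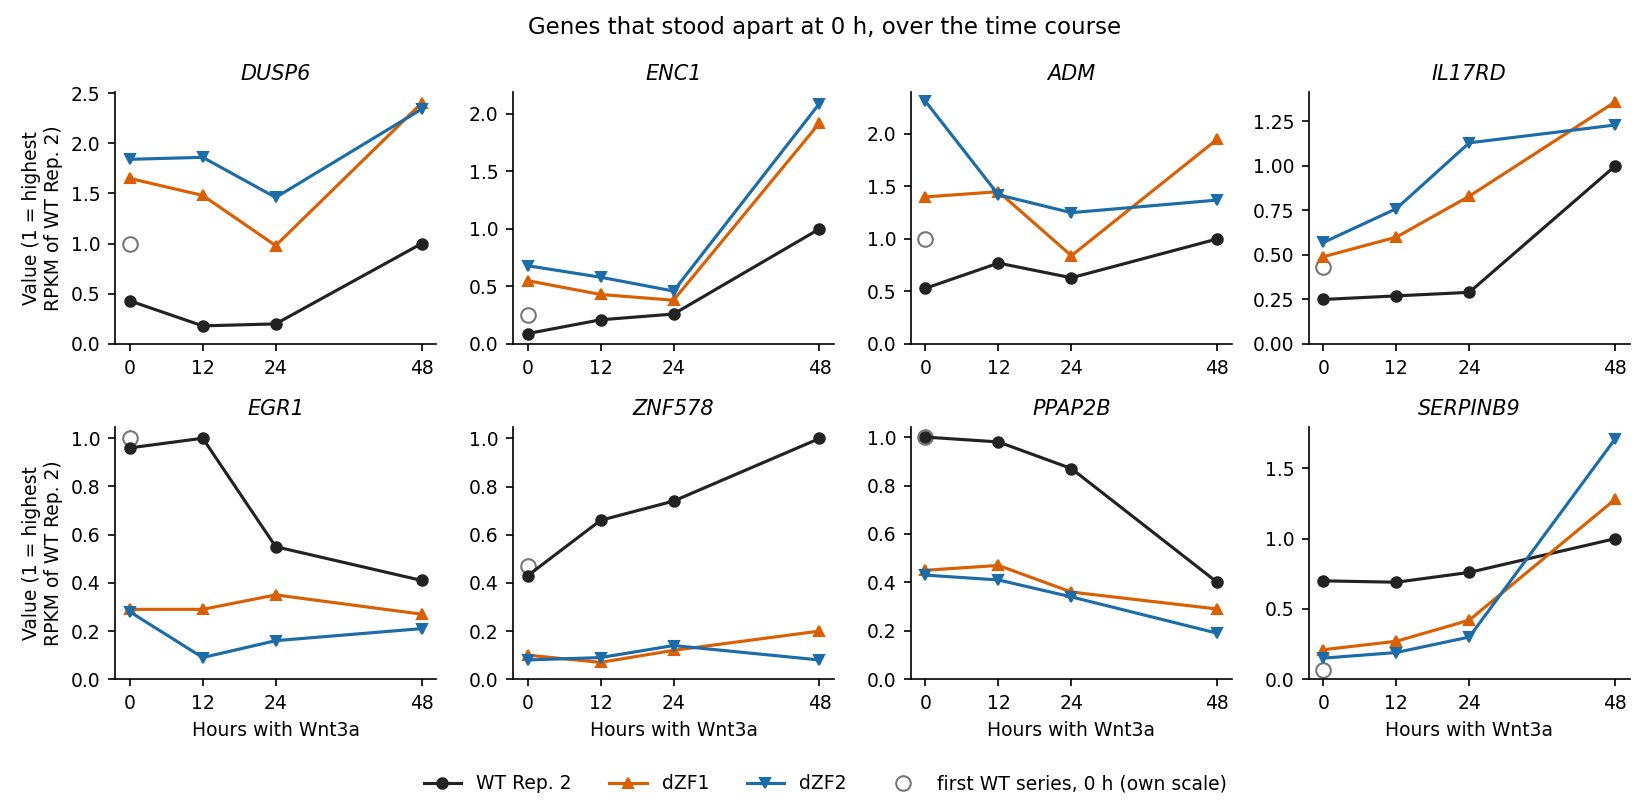
Values of 8 genes in WT Rep. 2, dZF1 and dZF2 against hours with Wnt3a, 1 library per point, with the first WT series at 0 h as an open circle on its own scale. The clone lines of DUSP6, ENC1, ADM and IL17RD run above WT Rep. 2 at every time and those of EGR1, ZNF578 and PPAP2B below it, while the SERPINB9 lines cross between 24 and 48 h.

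Genes were also grouped by when they peaked in the first WT series after Wnt3a. Of the 132 genes highest at 0 h (wave i), 58 (43.9%) were higher and 48 (36.4%) lower in both clones. Of the 117 genes that peaked at 48 h and were still under 50% of that at 24 h (wave iv), 27 (23.1%) were higher and 58 (49.6%) lower. Wave iv held 11 of the 25 genes with a 2-fold difference, and waves i, ii and iii held 5, 4 and 5. In wave iv 4.27% were 2-fold higher and 5.13% lower, against 2.21% and 2.82% of all genes. The shares were 2.27% and 1.52% in wave i, 0.806% and 2.42% in wave ii, and 1.61% and 2.42% in wave iii. Wave iv also had the lowest median value in WT Rep. 2, 0.41 against 0.60 for all genes. The part of this low level in the count was not tested. The median mean log2 ratio was 0.01 in wave i, -0.07 in waves ii and iii, and -0.22 in wave iv. The 25 genes were also lower in expression, with a median of 4.2 RPKM at 0 h in the first WT series against 8.8 for all genes, and 52.0% of them under 5 RPKM against 35.2%.

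No SP5 ChIP-Seq peak lay near any of the 24 positioned genes with a 2-fold difference. A peak summit of either deposited list lay within 50 kb of the start site for 53 of the 487 genes with a position on GRCh37 (10.9%), for 18 of 162 higher genes (11.1%) and for 24 of 207 lower genes (11.6%). Among the 24 positioned genes with a 2-fold difference the number was 0, which allows a share of up to 12.5%, so a share like that of all genes is within this limit. Both lists name the same ChIP library in their headers, so the list labelled without Wnt3a is not a separate measurement of untreated cells, and the header names H9 rather than H1 cells. Over the 53 genes with a peak the median mean log2 ratio was -0.09. The extremes were PRTG, an immunoglobulin superfamily receptor, with 0.62 in WT Rep. 2 against 1.44 in dZF1 and 1.25 in dZF2, and the sulfatase gene ARSE with 0.30, 0.07 and 0.17.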

How the data were processed

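RNA-Seq values of H1 cells were analysed at 0 h in dZF1, dZF2 and WT Rep. 2, grouped by the submitters' labels, and 0 sample columns lacked a group. The authors depleted ribosomal RNA, used TopHat for alignment to hg19 and Cuffdiff for RPKM; the submitters' processing notes also name Bowtie 0.12.7, SAMtools 0.1.12a and MACS 1.4.2, and the gene annotation is not given in the sources used here. In the mutant table the authors deposited WT values as a fraction, each RPKM divided by the gene's maximum over the 4 libraries of WT Rep. 2. Clone values were deposited as a ratio to that maximum, and both have 2 decimals. RPKM of the first WT series were deposited to 1 decimal. The authors' SP5 peak lists give, per peak, a tag count and a fold over control, with a p-value cutoff of 1e-05, and only summit positions were used. Depth is not in the tables, so 1 library per group and the rounding limit the precision. The limma p-values measure only the spread between the 2 clones at the 4 times and hold no spread between WT libraries. That spread may be technical, and the same 2 lines are counted anew at each time.

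Log2 ratios were taken after adding 0.05, and a gene was called when it differed by a factor of 2 in both clones. limma 3.58.1 in R 4.3.3 was fitted to the 12 libraries, with Benjamini-Hochberg adjustment over 497 genes. Positions of 487 genes came from GENCODE (release lifted to GRCh37), 445 by symbol and 42 by an older symbol. The share of genes with a peak carries the limit that a count of 0 allows (3 counts). Python 3.11.15, pandas 2.3.3, numpy 2.4.6 and matplotlib 3.10.9 served for the rest, and the steps were tested on simulated data.

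The genes named by rule were the 10 highest and the 10 lowest by their ratio in the weaker clone among those that differed the same way, SP5, list members past 2-fold in both clones, the pluripotency markers with a value, and the 4 genes with the widest opposite difference between clones. Further genes were picked with their values known, as examples of the lists or to account for the 25 calls, of which 1 gene is counted but not reported here by name. The members, the 18 gene lists and the rules were chosen with earlier results of these data known. Alternatives were other values added before the logarithm, centring, the mean of WT Rep. 2 at 0 and 12 h, each clone alone, other folds, minimum levels, limma, and other peak distances and lists. Restriction to genes above 0 in all 3 libraries and the first WT series as reference were added after the data were seen. The tables of the first WT series as fractions were not used.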

Additional observations from a re-analysis of the deposited data

Results flagged for a closer look

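For LOC100506686 and GAD1 both clones differed from WT Rep. 2 by at least 2-fold at 0 h and by at least 2-fold in the opposite direction at 24 h, and in each case the difference between the times was not tested. LOC100506686 was 0.01 in WT Rep. 2 against 0.39 in dZF1 and 0.26 in dZF2 at 0 h, and 0.94, 0.01 and 0.31 at 24 h, where the mean log2 ratio after adding 0.05 was -2.75. GAD1 was 0.05 in WT Rep. 2 and listed at 0 in both clones at 0 h. At 24 h it was listed at 0 in WT Rep. 2 and was 0.25 in dZF1 and 0.94 in dZF2, a mean log2 ratio of 3.45 on the same scale, which is no fold because the WT value is 0. Their RPKM at 0 h in the first WT series were 0.4 and 0.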

How the results depend on the processing

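The 11 higher and 14 lower genes depended on the value added before the logarithm. Adding 0.01 gave 18 higher genes, and adding 0.2 gave 6 higher and 6 lower, with 3, 1, 2 and 6 of them in waves i to iv and with 5 again 2-fold and 11 again in the same direction at 12 h, against 10 and 19. A fold of 1.5 gave 35 higher and 43 lower, and WT as the mean of 0 and 12 h gave 6 higher and 17 lower, with mean log2 ratios of 0.42 for YAF2, 0.50 for LPAR4, 0.65 for C10orf140 and 0.88 for ATF7IP2. With the first WT series as reference, chosen after seeing the data, 38 were higher and 4 lower, across 2 separate scales. limma called 1 higher and 0 lower. With 1 clone at a time the counts were 18 to 29 higher and 26 to 39 lower. SP5 peaks lay within 10 kb of 33 genes against 53 within 50 kb. The cause of these shifts was not tested. LECT1 went from 0.02 to -0.03 without dZF2. No paired analysis was possible because the labels number replicates for WT only and each clone has 1 library at each time. Unknown depth, 1 WT library and values rounded to 2 decimals limit low genes most.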
